A study of Mus musculus with 4 samples.

Results

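The transcripts of 38 autophagy machinery genes were followed across 4 mouse B16 melanoma tumors, out of 25239 gene symbols counted in each library. The genes were taken from a fixed list of symbols that spans the steps of autophagy, from initiation and nucleation through conjugation to cargo receptors and TFEB-type transcription factors. All 38 symbols were in the tables, all 38 had reads in every library, and all 38 passed the minimum mean count of 10 reads that 13357 genes passed.

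B16 cells, a transplantable melanoma line, were implanted subcutaneously in B6 mice, with a tumor on each flank, and RNA-seq was done on 1 library for each of 4 groups. In MV (L.i.t.), left tumors were injected with free virus, written MV in the titles and MYXV in the table headers, and TRP-1 T cells were given intravenously. In TRP-1MV, cells written TRP-1 TMV in the protocol were given intravenously with no injection into the tumor listed, and that name and the table header point to T cells that carried the virus. Remote tumor (no MV) was the uninjected right tumor of the animals whose left tumor received free virus. CTX is the control, for which the labels list PBS into left tumors and neither T cells nor virus, and they do not say which flank was sampled. The labels give CTX, injected intraperitoneally the day before ACT, and treatment on day 7 for the animals, and tumors were taken 12 days after ACT. An n of 2 is stated in the labels, but only 1 column of counts stands for each group, and pooling of animals is neither stated nor denied. With 1 library per group there is no spread between animals and no test. A group with T cells alone that the labels describe was not analysed here.

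Autophagy encloses cytoplasm in a double membrane and delivers it to the lysosome for breakdown. The ULK1 kinase complex starts the process, the class III phosphatidylinositol 3-kinase complex marks the membrane with its lipid product, and a pair of ubiquitin-like conjugation systems attaches ATG8 proteins such as LC3 to the growing membrane. Cargo receptors bind both the cargo and ATG8 proteins, and TFEB and TFE3 are transcription factors of lysosomal and autophagy genes. Much of the control of autophagy lies in phosphorylation, lipidation and turnover of proteins, which transcript levels do not measure.

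The libraries held 12375526 reads in MV (L.i.t.), 14802809 in TRP-1MV, 21790759 in Remote tumor (no MV) and 20811605 in CTX. Levels are given as CPM, counts scaled to library size with TMM factors. A count of 0 allows up to 0.222 CPM in the shallowest library and 0.151 CPM in the deepest. The 2 virus-exposed tumors, MV (L.i.t.) and TRP-1MV, stood apart from the other 2 in cell makeup. All 11 pan T cell markers were higher in each virus-exposed tumor than in CTX, by the 2-fold rule given below, and their summed level was 314 CPM in MV (L.i.t.), 314 in TRP-1MV, 9.55 in Remote tumor (no MV) and 10.01 in CTX. Of 13 macrophage and monocyte markers, 10 were higher in MV (L.i.t.) and 11 in TRP-1MV than in CTX, with sums of 1099.8 CPM in MV (L.i.t.), 1611 in TRP-1MV, 114 in Remote tumor (no MV) and 91.0 in CTX. Of 8 neutrophil markers, 5 had enough reads and all 5 were higher in both, with sums of 168 CPM in MV (L.i.t.), 267 in TRP-1MV, 1.76 in Remote tumor (no MV) and 1.20 in CTX. S100a8 and Retnlg had 0 reads in CTX and in Remote tumor (no MV). Of 13 melanocyte and pigment markers, 10 were lower in both virus-exposed tumors than in CTX, with sums of 6318 CPM in MV (L.i.t.), 5913 in TRP-1MV, 26697 in Remote tumor (no MV) and 26244 in CTX, so the melanocyte identity given by the labels was present in all 4 libraries. All 6 B cell markers, 3 of 4 dendritic cell markers compared and 2 of 2 keratinocyte markers compared, from a list of 7, were also higher in MV (L.i.t.) than in CTX. Of 8 fibroblast markers, 1 was lower. Markers nearly without reads in CTX passed the minimum count through the virus-exposed tumors. The B cell markers are such a case, with sums of 0.834 CPM in CTX and 0.804 in Remote tumor (no MV). That such markers were higher in the virus-exposed tumors was set by this filter. Endothelial markers were mixed: 2 of 5 compared were higher in MV (L.i.t.) than in CTX, Eng had a negative log2 ratio of −0.89, and the summed level was lower, at 318 CPM in MV (L.i.t.), 323 in TRP-1MV, 582 in Remote tumor (no MV) and 553 in CTX. Fewer cells of a type and less RNA per cell cannot be told apart in bulk tumors. The share of reads from Rn45s, Lars2 and Rpph1, abundant noncoding or often misassigned RNAs, was 1.64% in MV (L.i.t.), 1.62% in TRP-1MV, 0.164% in Remote tumor (no MV) and 0.141% in CTX. Leukocyte content, pigment cell content and this share all move with every difference described below between a virus-exposed tumor and CTX or Remote tumor (no MV), and their part in those differences was not tested.

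In MV (L.i.t.) against CTX, 7 autophagy genes were higher and 1 was lower by at least 2-fold, with a 95% counting interval of the ratio that excluded 1. The higher genes were Ulk1, Rb1cc1, Atg14, Atg9b, Atg16l2, Nbr1 and Calcoco1, and the lower one was Atg4a. The 7 are 18.4% of 38, beside 18.1% of all genes compared called higher, and the single lower gene is 2.63%, beside 11.1% called lower. At 2-fold on the TMM scale the share of autophagy genes called higher was thus close to that of all genes, and the share called lower was below it, on 1 gene. No statement particular to autophagy can be drawn from the count. In TRP-1MV against CTX the same 7 genes were higher and Atg4a was lower, where 18.5% of all genes were called higher and 11.7% lower. In Remote tumor (no MV) against CTX no autophagy gene was called in either direction, where 0.457% of all genes were called higher and 0.247% lower. These calls cover counting error only, and the comparisons of both virus-exposed tumors use the same CTX library. The labels list neither T cells nor virus for CTX, so virus and T cells given to the animal differ together there and cannot be told apart. On a scale set by 14 housekeeping genes, of which 5 were called lower on the TMM scale in MV (L.i.t.) against CTX, every log2 ratio is larger by 0.55 in MV (L.i.t.) and 0.54 in TRP-1MV. There 17 of the 38 autophagy genes were higher and 0 lower in MV (L.i.t.) against CTX, beside 30.1% and 3.62% of all genes. In TRP-1MV 15 of the 38 were higher and 0 lower, beside 29.5% and 3.95%. How near the share called higher lies to that of all genes thus depends on the scale.

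**Figure D1:**
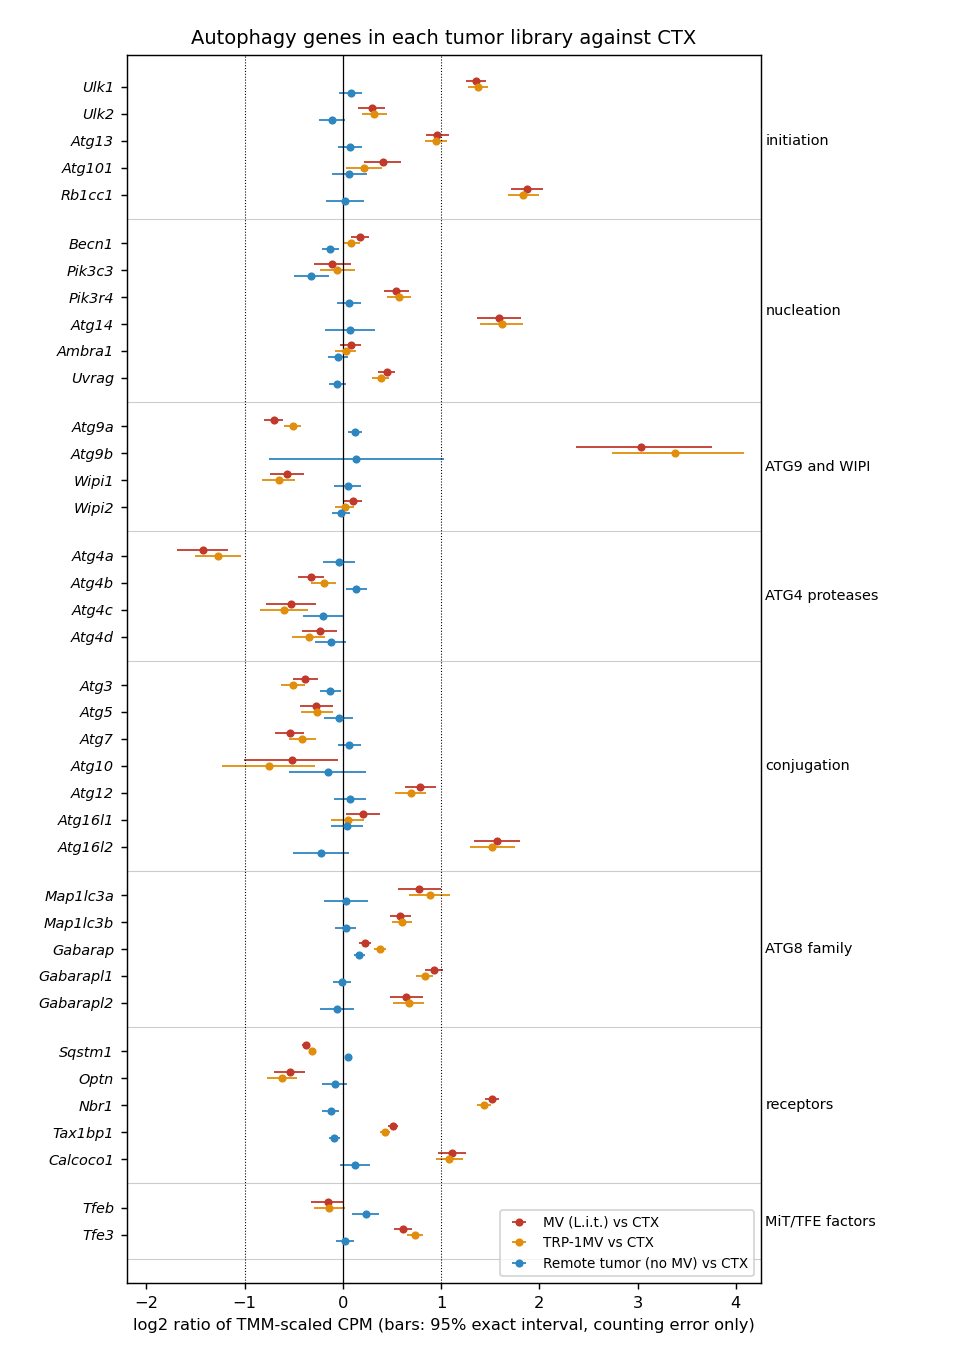
Log2 ratio of TMM-scaled CPM against CTX (x axis) for each of the 38 autophagy genes, ordered by step, in MV (L.i.t.), TRP-1MV and Remote tumor (no MV), with bars for the 95% exact counting interval. Remote tumor (no MV) stays between −0.32 and 0.23 for all genes, while the virus-exposed tumors run from −1.42 for Atg4a to 3.38 for Atg9b.

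The ratios of the whole set were spread on both sides of 0. Their median log2 ratio in MV (L.i.t.) against CTX was 0.26, beside −0.05 for all genes compared. In TRP-1MV against CTX it was 0.27, beside −0.07, and in Remote tumor (no MV) against CTX it was 0.02, beside −0.00. The median size of a change regardless of sign, 0.54 on the log2 scale in MV (L.i.t.) against CTX, was no larger than that of all genes, 0.61. In Remote tumor (no MV) against CTX all 38 ratios were within 0.5 of 0 on the log2 scale, as were 90.5% of all genes. The level of the set as a whole depends on the scale: its share of all reads was 0.443% in MV (L.i.t.), 0.443% in TRP-1MV, 0.316% in Remote tumor (no MV) and 0.316% in CTX, while its summed TMM-scaled level was 4056 CPM in MV (L.i.t.), 4069 in TRP-1MV, 3464 in Remote tumor (no MV) and 3427 in CTX.

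Levels of different genes were set side by side per kilobase of exon. Sqstm1, Gabarap and Tax1bp1 held the highest levels in every library. Sqstm1, which encodes the receptor p62, had 263 CPM per kb in MV (L.i.t.), 275 in TRP-1MV, 354 in Remote tumor (no MV) and 343 in CTX. The median gene had 16.0 CPM per kb in MV (L.i.t.), 15.8 in TRP-1MV, 15.2 in Remote tumor (no MV) and 14.8 in CTX. At the low end, Atg9b had 2.41 CPM per kb in MV (L.i.t.), 3.06 in TRP-1MV, 0.322 in Remote tumor (no MV) and 0.294 in CTX.

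Promoter windows show what sequence stands around the RefSeq starts of genes that moved differently. RefSeq windows of 300 bases on GRCm38.p6, from 250 bases before a gene's annotated start to 50 after it, were listed for 32 of the 38 genes, as 39 windows. Letters searched on both strands were the CLEAR element bound by TFEB and TFE3 (CACGTG with GT before and AC after it), CACGTG alone (the E-box), TCACGTG (the E-box with a T before it) and TGACNNNGC (the core of the antioxidant response element). The CLEAR letters were in 0 of 39 windows, beside 0.326% of 32817 windows of all genes. The E-box was in 4 of 39 (10.3%), those of Atg14, Atg3, Atg5 and Atg7, beside 7.15% of all windows. The E-box with a T before it was in 3 of 39 (7.69%), beside 3.76%, and the antioxidant core in 4 of 39 (10.3%), those of Atg13, Map1lc3b, Ulk2 and 1 of the windows of Tax1bp1, beside 12.4%. Of the 6 genes called higher in MV (L.i.t.) that have a window, Atg14 was the one with an E-box. The sequences shown are 4 of those genes, then Atg3 and Atg7, conjugation enzymes that hold an E-box and were not called. Each runs 5′ to 3′ on the gene's strand, from 250 bases before the start to 5 after it, with every E-box in capitals. The whole printed windows of Atg14 and Atg7 lie inside the spans that GENCODE gives these genes. Those spans are chr14:47540893-47570649 for Atg14 and chr6:114643097-114860614 for Atg7. The E-boxes printed for Atg14 and Atg7 are thus not before the gene as GENCODE draws it. The printed windows of Ulk1, Atg9b, Atg16l2 and Atg3 cross the edge of the GENCODE span. A match is only a match of letters, and a missing match says only that the letters are not in the window.
Ulk1 (chr5:110810077-110810331, minus strand): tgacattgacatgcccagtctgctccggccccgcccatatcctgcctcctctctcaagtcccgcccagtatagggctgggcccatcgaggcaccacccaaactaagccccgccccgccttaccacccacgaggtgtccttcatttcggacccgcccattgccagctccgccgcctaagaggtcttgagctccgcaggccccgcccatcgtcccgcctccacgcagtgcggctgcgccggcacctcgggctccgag
Atg14 (chr14:47568430-47568684, minus strand): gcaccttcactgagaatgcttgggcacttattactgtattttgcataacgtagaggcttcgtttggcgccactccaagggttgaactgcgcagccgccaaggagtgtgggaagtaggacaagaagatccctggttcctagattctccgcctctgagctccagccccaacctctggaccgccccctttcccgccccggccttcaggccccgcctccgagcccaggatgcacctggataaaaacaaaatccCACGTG
Atg9b (chr5:24392139-24392393, minus strand): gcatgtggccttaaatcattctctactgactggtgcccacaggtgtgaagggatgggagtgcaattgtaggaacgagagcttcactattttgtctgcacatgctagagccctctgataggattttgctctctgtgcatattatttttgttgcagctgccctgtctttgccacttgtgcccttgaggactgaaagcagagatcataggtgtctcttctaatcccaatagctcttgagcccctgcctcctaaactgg
Atg16l2 (chr7:101302084-101302338, minus strand): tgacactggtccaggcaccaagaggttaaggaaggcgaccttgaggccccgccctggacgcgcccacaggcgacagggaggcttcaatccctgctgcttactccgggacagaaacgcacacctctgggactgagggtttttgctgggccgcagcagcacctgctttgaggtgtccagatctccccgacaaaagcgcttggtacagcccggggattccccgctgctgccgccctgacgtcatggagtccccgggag
Atg3 (chr16:45158579-45158833, plus strand): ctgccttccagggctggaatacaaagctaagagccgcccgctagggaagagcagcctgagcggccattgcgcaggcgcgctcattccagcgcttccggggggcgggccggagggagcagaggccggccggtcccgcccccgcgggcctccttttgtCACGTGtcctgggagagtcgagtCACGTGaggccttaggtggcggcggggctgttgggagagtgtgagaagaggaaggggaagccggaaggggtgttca
Atg7 (chr6:114670846-114671100, plus strand): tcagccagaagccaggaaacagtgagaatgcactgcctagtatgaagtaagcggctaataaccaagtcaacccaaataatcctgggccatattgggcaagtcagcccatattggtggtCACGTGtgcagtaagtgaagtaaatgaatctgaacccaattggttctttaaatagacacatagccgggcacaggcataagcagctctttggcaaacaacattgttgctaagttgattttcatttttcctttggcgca

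In the initiation complex, the kinase gene Ulk1 and the scaffold gene Rb1cc1 (also called FIP200) were called higher in both virus-exposed tumors. Ulk1 (chr5:110784488-110810097, minus strand, mm10) had 152 CPM in MV (L.i.t.), 154 in TRP-1MV, 62.9 in Remote tumor (no MV) and 59.6 in CTX. Both virus-exposed tumors were well above the other 2, at 2.55 times the CTX level in MV (L.i.t.) and 2.59 times in TRP-1MV, with a log2 ratio of 1.35 (95% interval 1.25 to 1.46) in MV (L.i.t.) and 1.37 (95% interval 1.27 to 1.48) in TRP-1MV. Its paralog Ulk2 had 62.4 CPM in MV (L.i.t.), 63.6 in TRP-1MV, 47.1 in Remote tumor (no MV) and 50.9 in CTX, a log2 ratio of 0.29 in MV (L.i.t.) and 0.32 in TRP-1MV that did not pass. Rb1cc1 (chr1:6206197-6276648, plus strand) had 83.2 CPM in MV (L.i.t.), 80.8 in TRP-1MV, 23.1 in Remote tumor (no MV) and 22.7 in CTX. The 2 virus-exposed tumors lay close together and well above the other 2, at log2 ratios of 1.88 (95% interval 1.71 to 2.04) for MV (L.i.t.) and 1.83 (95% interval 1.68 to 1.99) for TRP-1MV against CTX. Atg13, the subunit that links the kinase to the scaffold, had 105 CPM in MV (L.i.t.), 105 in TRP-1MV, 57.1 in Remote tumor (no MV) and 54.2 in CTX. That is a ratio of 1.94 in MV (L.i.t.) and 1.93 in TRP-1MV against CTX, just under the 2-fold limit. Atg101, the partner that stabilises ATG13, had 34.2 CPM in MV (L.i.t.), 29.9 in TRP-1MV, 27.0 in Remote tumor (no MV) and 25.8 in CTX. It had the smallest ratio of the step in TRP-1MV against CTX, and Ulk2 the smallest in MV (L.i.t.) against CTX. All 5 initiation genes had positive ratios in both virus-exposed tumors, under TMM and under each of the other 6 scalings tried. The annotated exons of Rb1cc1 overlap 558 bp of 4732440D04Rik, a model not among the symbols used here, and the strand setting of the counting is not stated.

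Among genes of the class III phosphatidylinositol 3-kinase complex, Atg14 was called higher and the core subunits were not. The window of Atg14 above has an E-box across its RefSeq start. Atg14 directs the complex to sites of autophagosome formation. It had 522 reads in MV (L.i.t.), 635 in TRP-1MV, 269 in Remote tumor (no MV) and 247 in CTX. It lies at chr14:47540893-47570649, minus strand, and its exons overlap 239 bp of the model Gm49004. Its level was 38.6 CPM in MV (L.i.t.), 39.4 in TRP-1MV, 13.5 in Remote tumor (no MV) and 12.9 in CTX, with the virus-exposed tumors at a log2 ratio of 1.58 (95% interval 1.36 to 1.81) for MV (L.i.t.) and 1.61 (95% interval 1.40 to 1.83) for TRP-1MV against CTX. Becn1, the central subunit Beclin 1 and a gene often measured as an autophagy marker, had 131 CPM in MV (L.i.t.), 124 in TRP-1MV, 107 in Remote tumor (no MV) and 116 in CTX. Its log2 ratio was 0.17 (95% interval 0.08 to 0.26) in MV (L.i.t.), 0.09 (95% interval −0.00 to 0.17) in TRP-1MV and −0.13 (95% interval −0.21 to −0.04) in Remote tumor (no MV), so the 4 tumors were nearly level on the TMM scale. On the housekeeping scale Becn1 was at 0.73 (95% interval 0.64 to 0.82) in MV (L.i.t.) and 0.63 (95% interval 0.54 to 0.72) in TRP-1MV, not called in either. Pik3c3, the lipid kinase VPS34, had 28.3 CPM in MV (L.i.t.), 29.3 in TRP-1MV, 24.4 in Remote tumor (no MV) and 30.5 in CTX, the lowest ratio of the step, and none of its ratios passed. Its ratio in Remote tumor (no MV) against CTX, −0.32 (95% interval −0.50 to −0.15), was the lowest of all 38 genes there. Pik3r4, the regulatory subunit VPS15, had log2 ratios of 0.54 in MV (L.i.t.) and 0.57 in TRP-1MV. Uvrag, the alternative to ATG14 in a complex that acts on endosomes, had 0.45 in MV (L.i.t.) and 0.38 in TRP-1MV. Ambra1, a regulator that binds Beclin 1, had 0.08 in MV (L.i.t.) and 0.03 in TRP-1MV, close to no difference on the TMM scale. On the housekeeping scale Ambra1 was at 0.63 in MV (L.i.t.) and 0.57 in TRP-1MV. Becn1 shares 3104 bp of annotated exon with Cntd1 on the opposite strand, which had 30 reads in MV (L.i.t.), 33 in TRP-1MV, 19 in Remote tumor (no MV) and 15 in CTX. Uvrag shares 1589 bp with the model Gm45187 on the opposite strand.

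ATG9 is the lipid scramblase in the vesicles that seed autophagosomes, and of its paralogs Atg9b was called higher and Atg9a was not called. Atg9b (chr5:24384181-24392143, minus strand) had 127 reads in MV (L.i.t.), 192 in TRP-1MV, 25 in Remote tumor (no MV) and 22 in CTX, or 9.40 CPM in MV (L.i.t.), 11.9 in TRP-1MV, 1.26 in Remote tumor (no MV) and 1.15 in CTX. This was the largest ratio among the 38 genes, at a log2 ratio of 3.03 (95% interval 2.37 to 3.76) in MV (L.i.t.) and 3.38 (95% interval 2.74 to 4.09) in TRP-1MV, and it rests on 22 reads in CTX. Its exons overlap 294 bp of Nos3 on the opposite strand. The raw reads of Nos3, not scaled for depth, were 16 in MV (L.i.t.), 28 in TRP-1MV, 49 in Remote tumor (no MV) and 45 in CTX. They were more in the deeper libraries, where Atg9b was low. Atg9a, the broadly expressed paralog, had 101 CPM in MV (L.i.t.), 115 in TRP-1MV, 179 in Remote tumor (no MV) and 164 in CTX. Its log2 ratio was −0.71 (95% interval −0.80 to −0.61) in MV (L.i.t.) and −0.51 (95% interval −0.60 to −0.43) in TRP-1MV, short of 2-fold, and on the housekeeping scale it was −0.15 in MV (L.i.t.) and 0.03 in TRP-1MV, so its direction in TRP-1MV flips with the scale. The WIPI proteins bind the lipid made by VPS34. Wipi1 had 29.5 CPM in MV (L.i.t.), 27.8 in TRP-1MV, 45.3 in Remote tumor (no MV) and 43.8 in CTX, and Wipi2, which brings ATG16L1 to the membrane, had 112 CPM in MV (L.i.t.), 106 in TRP-1MV, 103 in Remote tumor (no MV) and 104 in CTX. Neither WIPI gene was called. The annotated exons of Atg9a overlap 1832 bp of Gm29253 on the same strand, a model not among the symbols used here.

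The ATG4 proteases trim new ATG8 proteins and release them from membranes. Atg4a (chrX:140956907-141164270, plus strand) was the single autophagy gene called lower. It had 11.7 CPM in MV (L.i.t.), 13.04 in TRP-1MV, 30.6 in Remote tumor (no MV) and 31.4 in CTX. Both virus-exposed tumors were well below the other 2, at a log2 ratio of −1.42 (95% interval −1.69 to −1.17) for MV (L.i.t.) and −1.27 (95% interval −1.501 to −1.04) for TRP-1MV against CTX. Atg4b, the protease with the broadest activity, had 53.4 CPM in MV (L.i.t.), 58.5 in TRP-1MV, 73.8 in Remote tumor (no MV) and 67.1 in CTX, and Atg4d had 31.2 CPM in MV (L.i.t.), 28.9 in TRP-1MV, 33.7 in Remote tumor (no MV) and 36.8 in CTX. Atg4d had the highest ratio of the step in MV (L.i.t.) against CTX, and Atg4b the highest in TRP-1MV against CTX. Atg4c had log2 ratios of −0.53 in MV (L.i.t.) and −0.60 in TRP-1MV. All 4 ratios were negative in both virus-exposed tumors on the TMM scale, whereas on the housekeeping scale 3 were positive in MV (L.i.t.) and 2 in TRP-1MV, and on total counts 1 was positive in each. Atg4a remained negative on the housekeeping scale, at −0.87 in MV (L.i.t.) and −0.73 in TRP-1MV, where it no longer reached 2-fold. Atg4d shares 1405 bp of annotated exon with Kri1.

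In the conjugation systems, Atg16l2 was called higher and the enzymes were not. Atg16l2 (chr7:101263034-101302251, minus strand), a paralog of Atg16l1 whose role in autophagy is less well understood, had 35.0 CPM in MV (L.i.t.), 33.8 in TRP-1MV, 10.1 in Remote tumor (no MV) and 11.8 in CTX. The virus-exposed tumors were at 2.97 times the CTX level in MV (L.i.t.) and 2.87 times in TRP-1MV, a log2 ratio of 1.57 (95% interval 1.34 to 1.81) for MV (L.i.t.) and 1.52 (95% interval 1.29 to 1.75) for TRP-1MV, and Remote tumor (no MV) was at −0.22 (95% interval −0.50 to 0.06). Its exons overlap 25 bp of Fchsd2. The raw reads of Fchsd2, not scaled for depth, were 468 in MV (L.i.t.), 522 in TRP-1MV, 683 in Remote tumor (no MV) and 699 in CTX. Atg16l1, the subunit that positions the conjugation machinery on membranes, had log2 ratios of 0.20 in MV (L.i.t.) and 0.05 in TRP-1MV. Atg12, the ubiquitin-like protein joined to ATG5, was second in the step at 0.79 in MV (L.i.t.) and 0.69 in TRP-1MV. The other 4 lay below 0 on the TMM scale. Atg5, the partner of ATG12, was at −0.27 in MV (L.i.t.) and −0.26 in TRP-1MV. The E2-like enzyme genes Atg3, for ATG8 proteins, and Atg10, for ATG12, were at −0.38 and −0.52 in MV (L.i.t.) and at −0.51 and −0.75 in TRP-1MV. Atg7, the E1-like enzyme of both systems, had 41.1 CPM in MV (L.i.t.), 44.9 in TRP-1MV, 62.4 in Remote tumor (no MV) and 59.8 in CTX. At −0.54 in MV (L.i.t.) and −0.41 in TRP-1MV, it had the lowest ratio of the step in MV (L.i.t.). On the housekeeping scale all 7 ratios were positive in MV (L.i.t.) and 6 of 7 in TRP-1MV, so the sign of these enzymes rests on the scale. Atg10, the least abundant gene of the 38 in reads in MV (L.i.t.) and TRP-1MV, had 57 reads in MV (L.i.t.), 58 in TRP-1MV, 108 in Remote tumor (no MV) and 116 in CTX, too few for more than a wide interval.

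The 5 ATG8 genes encode the proteins that are attached to the membrane and bind receptors. All 5 were positive in both virus-exposed tumors against CTX under all 7 scalings, and none reached 2-fold on the TMM scale. Gabarapl1 had 180.3 CPM in MV (L.i.t.), 169 in TRP-1MV, 94.3 in Remote tumor (no MV) and 94.8 in CTX, the highest ratio of the family in MV (L.i.t.), at 0.93 (95% interval 0.84 to 1.02), and 0.83 (95% interval 0.74 to 0.92) in TRP-1MV. Gabarap, the most abundant, had 291 CPM in MV (L.i.t.), 324 in TRP-1MV, 279.7 in Remote tumor (no MV) and 249 in CTX, the smallest ratio in MV (L.i.t.), at 0.22 (95% interval 0.16 to 0.28). Map1lc3b, whose protein LC3B is the usual marker of autophagosomes, had 115 CPM in MV (L.i.t.), 117 in TRP-1MV, 78.4 in Remote tumor (no MV) and 76.9 in CTX. Its log2 ratio was 0.59 (95% interval 0.48 to 0.69) in MV (L.i.t.) and 0.60 (95% interval 0.50 to 0.70) in TRP-1MV. Map1lc3a had log2 ratios of 0.78 in MV (L.i.t.) and 0.88 in TRP-1MV, and Gabarapl2 had 0.65 in MV (L.i.t.) and 0.67 in TRP-1MV. On the housekeeping scale 4 of the 5 were called higher in each virus-exposed tumor. ATG8 genes have near-identical copies elsewhere in the genome, and how such reads were counted is not stated.

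Among the cargo receptors, Nbr1 and Calcoco1 were called higher in both virus-exposed tumors, and the related receptor gene Sqstm1 was not called. Nbr1 (chr11:101552149-101581951, plus strand), a receptor for ubiquitinated proteins, had 4874 reads in MV (L.i.t.), 5484 in TRP-1MV, 2298 in Remote tumor (no MV) and 2415 in CTX, or 361 CPM in MV (L.i.t.), 340.5 in TRP-1MV, 115 in Remote tumor (no MV) and 126 in CTX. Both virus-exposed tumors were above the other 2, at a log2 ratio of 1.52 (95% interval 1.45 to 1.59) for MV (L.i.t.) and 1.43 (95% interval 1.37 to 1.505) for TRP-1MV against CTX, the best counted of the called genes. Sqstm1 (chr11:50199366-50210827, minus strand), the related receptor p62, had 10046 reads in MV (L.i.t.), 12511 in TRP-1MV, 19896 in Remote tumor (no MV) and 18559 in CTX, or 743 CPM in MV (L.i.t.), 777 in TRP-1MV, 999.6 in Remote tumor (no MV) and 968 in CTX. Its log2 ratio was −0.38 (95% interval −0.42 to −0.35) in MV (L.i.t.) and −0.32 (95% interval −0.35 to −0.28) in TRP-1MV on the TMM scale, under 2-fold, and on the housekeeping scale it was 0.17 in MV (L.i.t.) and 0.22 in TRP-1MV, where the sign is the opposite. Its exons overlap 580 bp of Mrnip on the other strand. Calcoco1 (chr15:102706777-102722178, minus strand), a receptor for endoplasmic reticulum and Golgi, had 74.2 CPM in MV (L.i.t.), 72.9 in TRP-1MV, 37.4 in Remote tumor (no MV) and 34.4 in CTX, a ratio of 2.16 in MV (L.i.t.) and 2.12 in TRP-1MV against CTX, just past 2-fold. Tax1bp1, a ubiquitin-binding receptor, had log2 ratios of 0.51 in MV (L.i.t.) and 0.43 in TRP-1MV. Optn, the receptor optineurin, had 35.7 CPM in MV (L.i.t.), 33.7 in TRP-1MV, 48.9 in Remote tumor (no MV) and 51.8 in CTX, the lowest ratio of the step at −0.54 in MV (L.i.t.) and −0.62 in TRP-1MV, and it was not called. On the housekeeping scale Optn was at 0.01 in MV (L.i.t.) and −0.08 in TRP-1MV.

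**Figure D2:**
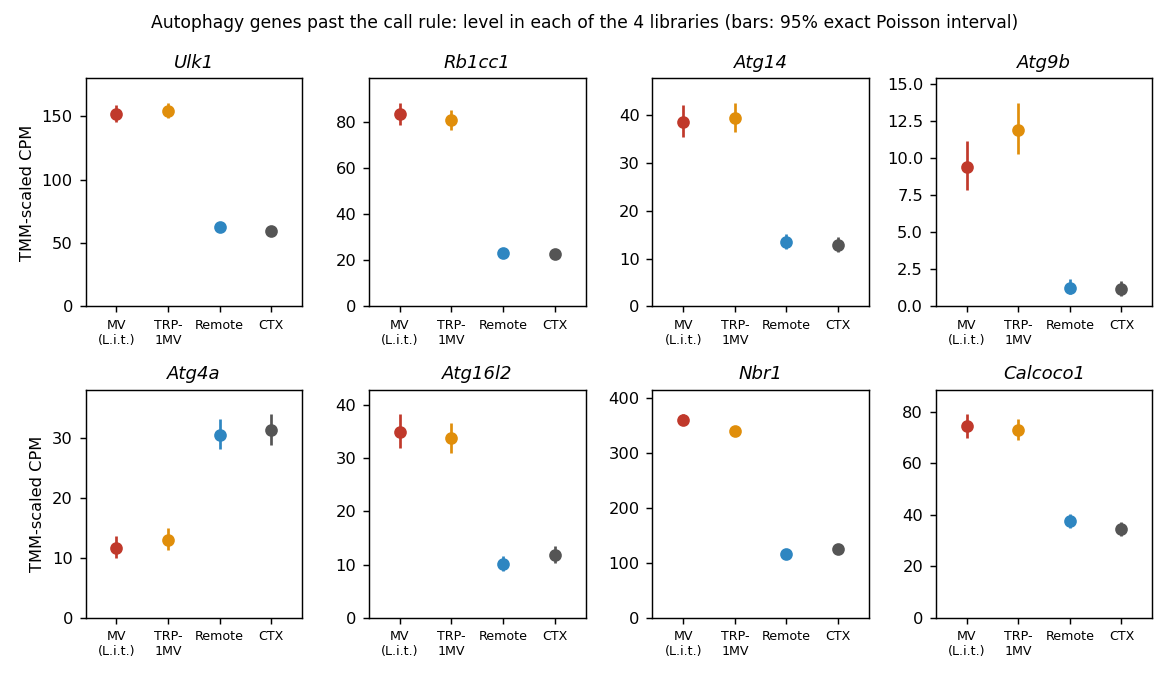
TMM-scaled CPM (y axis, from 0, one panel per gene) of the autophagy genes called in at least 1 comparison, in each of the 4 libraries, with bars for the 95% exact Poisson interval. For Ulk1, Rb1cc1, Atg14, Atg9b, Atg16l2, Nbr1 and Calcoco1 the MV (L.i.t.) and TRP-1MV points lie above the Remote tumor (no MV) and CTX points, and for Atg4a they lie below.

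Of the transcription factors, Tfeb had 35.9 CPM in MV (L.i.t.), 36.3 in TRP-1MV, 46.9 in Remote tumor (no MV) and 39.9 in CTX and Tfe3 had 153 CPM in MV (L.i.t.), 167 in TRP-1MV, 101 in Remote tumor (no MV) and 100.3 in CTX. Neither was called. Tfeb was lower in the virus-exposed tumors than in CTX on the TMM scale, at log2 ratios of −0.15 in MV (L.i.t.) and −0.14 in TRP-1MV, and higher on the housekeeping scale, at 0.40 in MV (L.i.t.) and 0.40 in TRP-1MV. Tfe3 had 0.61 (95% interval 0.52 to 0.70) in MV (L.i.t.) and 0.73 (95% interval 0.65 to 0.82) in TRP-1MV. Tfeb had the highest ratio of all 38 genes in Remote tumor (no MV) against CTX, 0.23 (95% interval 0.09 to 0.37). Ratios in that comparison rose with GC content, at a Spearman correlation of 0.59 over the 38 genes and 0.42 over all genes. Tfeb has a GC content of 63.2%. Its ratio there ran from 0.13 to 0.32 over the processing alternatives, matching on GC content included. The other family members moved further. Mitf, the melanocyte factor of the family, had 2440 reads in MV (L.i.t.), 2703 in TRP-1MV, 9558 in Remote tumor (no MV) and 10613 in CTX, a log2 ratio of −1.62 (95% interval −1.68 to −1.55) in MV (L.i.t.) and −1.72 (95% interval −1.78 to −1.66) in TRP-1MV, both called lower. Tfec, which is expressed in macrophages, had 57 reads in MV (L.i.t.), 105 in TRP-1MV, 12 in Remote tumor (no MV) and 4 in CTX, both virus-exposed tumors called higher, with 4 reads in CTX. Mitf is 1 of the 13 pigment markers above, most of which were called lower in both virus-exposed tumors.

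The makeup of the autophagy transcripts, a measure that needs no scaling between libraries, differed between the virus-exposed tumors and the others. Initiation genes took 10.8% of all autophagy reads in MV (L.i.t.), 10.7% in TRP-1MV, 6.27% in Remote tumor (no MV) and 6.22% in CTX. ATG8 genes took 16.3% in MV (L.i.t.), 16.9% in TRP-1MV, 14.4% in Remote tumor (no MV) and 13.6% in CTX. In both steps the virus-exposed tumors were above the other 2. The opposite order was seen for ATG9 and WIPI genes, with 6.20% in MV (L.i.t.), 6.41% in TRP-1MV, 9.48% in Remote tumor (no MV) and 9.15% in CTX, and for ATG4 proteases, with 2.73% in MV (L.i.t.), 2.80% in TRP-1MV, 4.50% in Remote tumor (no MV) and 4.55% in CTX. Receptors were the largest step, at 40.0% in MV (L.i.t.), 39.6% in TRP-1MV, 42.5% in Remote tumor (no MV) and 42.8% in CTX. Within that step Sqstm1 alone took 18.3% of autophagy reads in MV (L.i.t.), 19.1% in TRP-1MV, 28.9% in Remote tumor (no MV) and 28.2% in CTX, and Nbr1 took 8.89% in MV (L.i.t.), 8.37% in TRP-1MV, 3.33% in Remote tumor (no MV) and 3.67% in CTX. A share falls when another share grows, so these values describe proportions and not amounts.

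**Figure D3:**
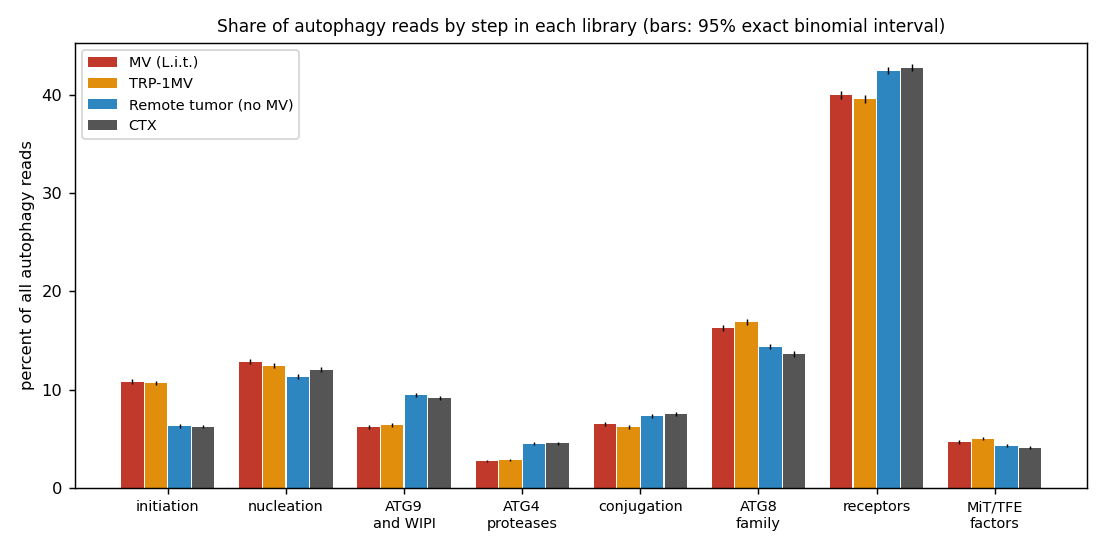
Percent of all autophagy reads taken by each of the 8 steps in each library, with bars for the 95% exact binomial interval. Initiation is near 11% in MV (L.i.t.) and TRP-1MV against about 6% in Remote tumor (no MV) and CTX, and receptors are the largest step in every library.

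Ratios between functionally paired genes within a library are also free of the scaling, and 11 such pairs were compared. The pairs were chosen with earlier results of these data known, and several set a called gene against an uncalled partner. Their ratios describe the same differences and are no separate support for the calls. The receptor pair had the most reads behind it. The ratio Nbr1/Sqstm1 was 0.485 in MV (L.i.t.), 0.438 in TRP-1MV, 0.116 in Remote tumor (no MV) and 0.130 in CTX, and the ratio in MV (L.i.t.) was 3.73 (95% interval 3.53 to 3.94) times that in CTX, in TRP-1MV 3.37 (95% interval 3.19 to 3.55), and in Remote tumor (no MV) 0.888 (95% interval 0.835 to 0.943). The ratio Atg9b/Atg9a was 0.0932 in MV (L.i.t.), 0.103 in TRP-1MV, 0.00702 in Remote tumor (no MV) and 0.00698 in CTX, which is 13.4 (95% interval 8.40 to 22.2) times the CTX ratio in MV (L.i.t.), with a wide interval. The ratio Ulk1/Ulk2 was 2.44 in MV (L.i.t.), 2.43 in TRP-1MV, 1.34 in Remote tumor (no MV) and 1.17 in CTX, 2.09 (95% interval 1.85 to 2.35) times the CTX ratio in MV (L.i.t.). Per length of exon, Ulk1 stood above Ulk2 in all 4 libraries, at 2.68 in MV (L.i.t.), 2.67 in TRP-1MV, 1.47 in Remote tumor (no MV) and 1.28 in CTX. The ratio Atg16l2/Atg16l1 was 0.937 in MV (L.i.t.), 1.01 in TRP-1MV, 0.302 in Remote tumor (no MV) and 0.363 in CTX, 2.58 (95% interval 2.11 to 3.16) times the CTX ratio in MV (L.i.t.). Per length, Atg16l2 stayed below Atg16l1 in all 4 libraries, at 0.461 in MV (L.i.t.), 0.495 in TRP-1MV, 0.148 in Remote tumor (no MV) and 0.178 in CTX. Atg14 against Uvrag, the subunits that exclude each other in the lipid kinase complex, was 0.246 in MV (L.i.t.), 0.262 in TRP-1MV, 0.122 in Remote tumor (no MV) and 0.112 in CTX, 2.20 (95% interval 1.87 to 2.60) times the CTX ratio in MV (L.i.t.). Of the pairs that leaned the other way, Atg4a/Atg4b was 0.467 (95% interval 0.381 to 0.572) times, Tfeb/Tfe3 0.589 (95% interval 0.516 to 0.672) times and Wipi1/Wipi2 0.629 (95% interval 0.548 to 0.723) times the CTX ratio in MV (L.i.t.). Gabarapl1/Gabarap was 1.63 (95% interval 1.51 to 1.76) times the CTX ratio there. Map1lc3a/Map1lc3b at 1.14 (95% interval 0.966 to 1.35) and Atg4c/Atg4d at 0.816 (95% interval 0.657 to 1.01) had intervals in MV (L.i.t.) that held 1. TRP-1MV against CTX gave the same directions for all 11 pairs, as 2.08 for Ulk1/Ulk2, 2.35 for Atg14/Uvrag, 2.77 for Atg16l2/Atg16l1, 0.476 for Atg4a/Atg4b and 0.546 for Tfeb/Tfe3. It shares the CTX library with the other comparisons.

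**Figure D4:**
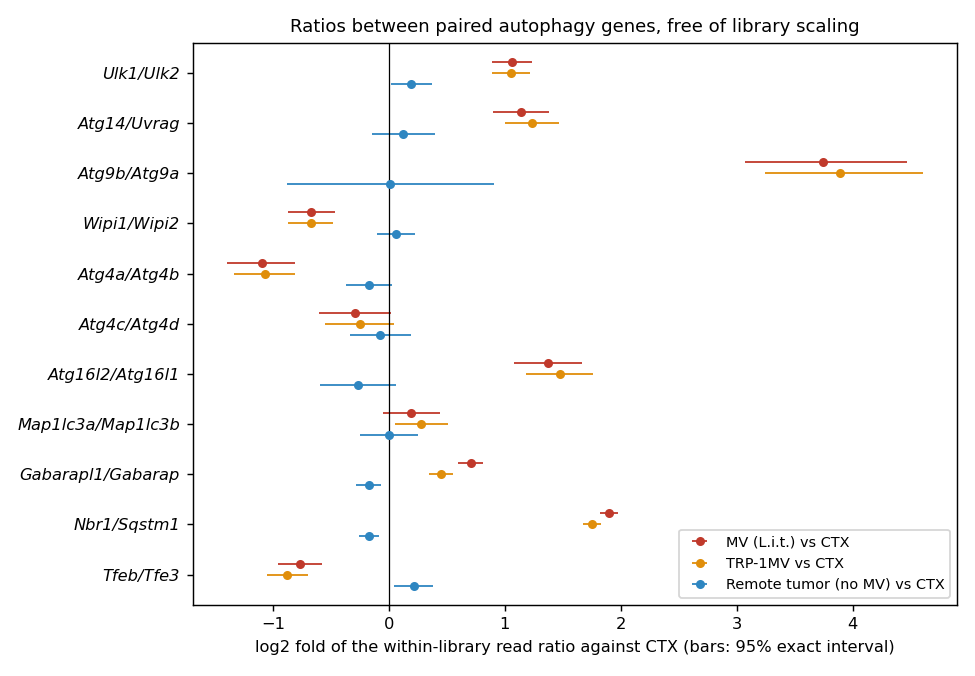
Log2 fold of the read ratio between 2 paired autophagy genes against the same ratio in CTX (x axis), for MV (L.i.t.), TRP-1MV and Remote tumor (no MV), with bars for the 95% exact interval. Atg9b/Atg9a and Nbr1/Sqstm1 lie furthest to the right in MV (L.i.t.) and TRP-1MV, Atg4a/Atg4b furthest to the left, and Remote tumor (no MV) stays near 0.

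The injected and the uninjected flank of the free-virus group were compared in MV (L.i.t.) against Remote tumor (no MV), where both had T cells given to the animal. Of the 7 genes above, 6 were called higher, all but Calcoco1, and Atg4a was called lower, where 18.6% of all genes were called higher and 11.7% lower. On the housekeeping scale 18 were higher and 0 lower, where 32.8% of all genes were higher and 3.25% lower. Calcoco1 missed the limit at 0.99 (95% interval 0.85 to 1.13). Rb1cc1 was at 1.85 (95% interval 1.69 to 2.01), Nbr1 at 1.64 (95% interval 1.57 to 1.72) and Atg4a at −1.39 (95% interval −1.65 to −1.13). The median of the 38 log2 ratios was 0.32, beside −0.04 for all genes. Injection, flank and the leukocyte content described above differ together here and cannot be told apart.

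TRP-1MV against MV (L.i.t.) compares what the names point to as virus carried by T cells with free virus injected into the tumor. Injection into the tumor and the carrier of the virus differ together here and cannot be told apart. No autophagy gene was called in either direction, where 0.562% of all genes were called higher and 0.217% lower. All 38 log2 ratios were within 0.5 of 0, as were 91.9% of all genes, and they ran from −0.23 for Atg10 to 0.34 for Atg9b, with a median of −0.02 beside −0.01 for all genes. The folds of the 11 pair ratios ran from 0.839 for Gabarapl1/Gabarap to 1.11. By contrast all 18 lysosomal genes had positive ratios, although none was called. Their median was 0.15, and the highest was Psap, the precursor of the saposins, at 0.55 (95% interval 0.53 to 0.58). Of the 13 macrophage markers 12 were also positive, with a median of 0.48, and 5 of 5 neutrophil markers, with a median of 0.54. Their part in the lysosomal ratios was not tested.

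Genes around the machinery were read from 12 further lists, of which those nearest to autophagy are given here for MV (L.i.t.) against CTX. In that comparison 18.1% of all genes were called higher and 11.1% lower, and in TRP-1MV against CTX 18.5% and 11.7%. A count near those shares says nothing particular to its list. Of 14 genes for fusion of autophagosomes with lysosomes, 0 were higher and 1 was lower: Tecpr1, a tethering factor, at −1.79, with Epg5, another tether, highest at 0.51. Of 18 lysosomal genes, 0 were higher and 1 was lower, Hexa, a subunit of hexosaminidase, at −1.15. In TRP-1MV against CTX 2 lysosomal genes were higher, Gla at 1.01 and Psap at 1.30, and Hexa was lower. Of 13 V-ATPase subunit genes, 1 was higher and 1 lower. The higher one was Atp6v0d2, a subunit isoform of macrophages and osteoclasts, with 211 reads in MV (L.i.t.), 372 in TRP-1MV, 27 in Remote tumor (no MV) and 8 in CTX, and the lower one was Atp6v1e1 at −1.01. Atp6v0d2 was also called higher in Remote tumor (no MV), at 1.70 (95% interval 0.52 to 3.05), on few reads.

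Of 23 genes of mTORC1, the kinase that holds ULK1 inactive in fed cells, and its regulators, 1 was higher in MV (L.i.t.) than in CTX and 3 were lower. Beside this and the counts below stand 18.1% of all genes called higher there and 11.1% lower. Fnip1, a folliculin partner, was at 1.11, Deptor, an mTOR inhibitor, at −2.15, and the Ragulator subunits Lamtor2 and Lamtor4 at −1.25 and −1.01. None of 7 AMPK and LKB1 genes and none of 6 genes for inhibitors of autophagy was called, with median log2 ratios of 0.30 and 0.22. Of 11 mitophagy and ER-phagy receptor genes, 1 was lower, Fundc1, a mitophagy receptor, at −1.003. The list whose genes were all called was the NADPH oxidase of LC3-associated phagocytosis, a process that puts LC3 on phagosomes in phagocytes. All 6 of its genes were higher in MV (L.i.t.) than in CTX, with a median of 5.19, and all 6 in TRP-1MV, with a median of 5.69, while Remote tumor (no MV) against CTX had 0. Cybb, its catalytic subunit, was at 4.95 (95% interval 4.60 to 5.32) in MV (L.i.t.), and its list had summed levels of 497 CPM in MV (L.i.t.), 678 in TRP-1MV, 49.1 in Remote tumor (no MV) and 42.1 in CTX. The macrophage and neutrophil markers above moved with it, and their part was not tested.

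Exon length also moved with the ratios. Over all genes with a length, cut into 5 equal groups from short to long, the median log2 ratio in MV (L.i.t.) against CTX was −0.31, −0.10, −0.06, −0.02 and 0.15. The 7 genes called higher had a median exon length of 5227 bp, beside 3662 bp for the other 31 autophagy genes and 3333 bp for all genes with one. Set against genes of similar length, in 20 bins, all 8 called genes stayed called in MV (L.i.t.) against CTX, and Map1lc3a and Gabarapl1 reached 2-fold too. In Remote tumor (no MV) against CTX the same medians were 0.06, 0.04, 0.00, −0.02 and −0.06, which runs the other way. Ratios in that comparison also rose with GC content. The median was −0.10 in the lowest of 5 equal groups by GC content and 0.08 in the highest. In MV (L.i.t.) against CTX those medians were 0.02 and −0.04.

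**Figure D5:**
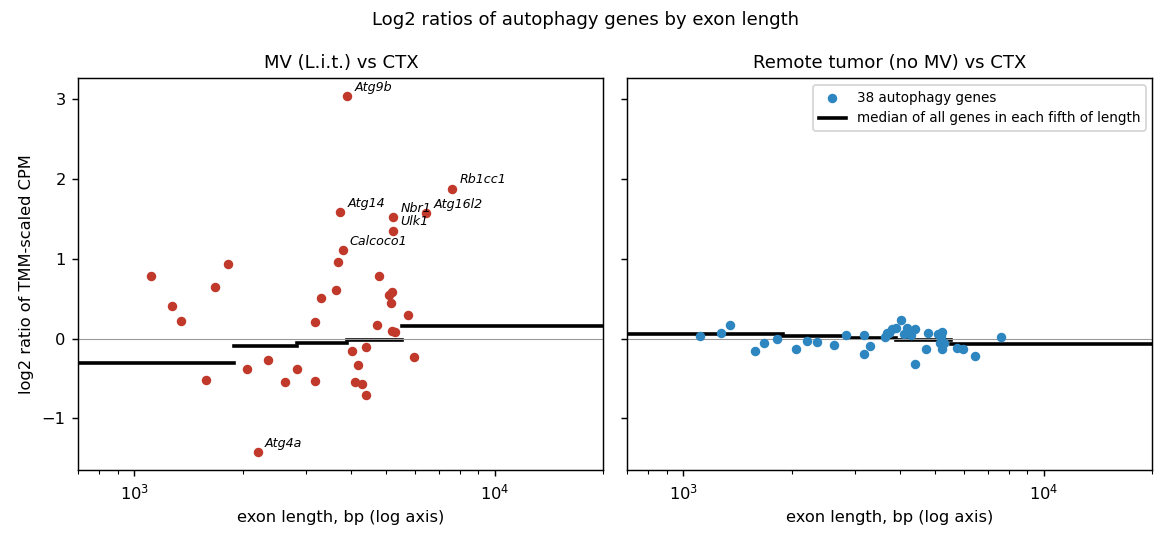
Log2 ratio against CTX (y axis) by exon length in bp (log x axis) of the 38 autophagy genes (points), for MV (L.i.t.) on the left and Remote tumor (no MV) on the right, with black lines for the median of all genes in each of 5 length groups. Rb1cc1 and Atg16l2 lie at 7607 and 6459 bp, Atg9b and Atg4a at 3902 and 2202 bp, and the Remote tumor (no MV) points stay near 0.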

How the data were processed

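Counts of RNA-seq reads from 4 libraries, 1 per group, were used, with groups taken from the sample titles. The deposited tables hold raw counts, whole numbers for 25239 gene symbols per library, with no normalization by the authors stated or seen. The submitters' processing notes name HISAT2, featureCounts and the build mm10, with no role or order. Versions, annotation, strand setting and the treatment of multi-mapped reads are not stated in the labels or headers, and reads of near-identical copies may be lost or split.

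CPM were computed with TMM factors (edgeR 4.0.16, R 4.3.3) from all 4 libraries, and 13357 genes with a mean count of at least 10 were compared, which hold 99.93% of reads. Log2 ratios carry 95% intervals from the exact binomial distribution of a gene's reads over both libraries (Clopper-Pearson), levels have exact Poisson intervals and shares exact binomial ones (scipy 1.17.1, numpy 2.4.6, pandas 2.3.3, Python 3.11.15, matplotlib 3.10.9). All cover counting error only, and depth sets their width. A gene was called when its ratio was at least 2 in either direction and its interval excluded 1. A count of 0 was set to a floor of 3 counts. The ratio between paired genes has the exact interval of the conditional odds ratio. The rule was tried on simulated counts with counting error only, in which 200 genes were changed. In MV (L.i.t.) against CTX 2411 genes were called higher and 1488 lower. The simulation thus covers neither so broad a difference nor the spread between animals. Positions and exon lengths (union of protein-coding transcripts) came from GENCODE M21 on mm10, and 94.4% of genes compared have a length. Promoters came from RefSeq windows on GRCm38.p6.

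All 38 genes are described by step. Named with values in every library were genes called in any comparison and the highest and lowest ratio of each step, and of other lists the called genes and the extremes in MV (L.i.t.) against CTX, with a few others for their role. The result of 1 list is not reported here. The members, gene lists, rules and pairs were chosen with earlier results of these data known. There were 5 comparisons and 14 alternatives. The scalings tried were upper-quartile factors, DESeq2 1.42.0 size factors, housekeeping genes, total counts, median centring, and TMM without abundant RNA and ribosomal protein genes. The other alternatives were a minimum mean of 50 or none, a 1.5-fold rule, a rule that the interval bound reach 2, a prior count of 2, thinning to the smallest total, and matching on exon length or on GC content.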

Additional observations from a re-analysis of the deposited data

How the results depend on the processing

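In MV (L.i.t.), TRP-1MV and Remote tumor (no MV) against CTX, in MV (L.i.t.) against Remote tumor (no MV) and in TRP-1MV against MV (L.i.t.), the counts of autophagy genes called were within 1.5 times of those reported under DESeq2 size factors, upper-quartile factors, TMM without abundant RNA and ribosomal protein genes, median centring, both other minimum counts, the prior count, thinning, the bound of at least 2, and matching on exon length or GC content. The last 2 were chosen after seeing the data. Scaling on housekeeping genes gave 17 higher and 0 lower in MV (L.i.t.) against CTX, 15 higher and 0 lower in TRP-1MV against CTX, and 18 higher and 0 lower in MV (L.i.t.) against Remote tumor (no MV), because it adds 0.55, 0.54 and 0.61 to every log2 ratio there. Total counts gave 11 higher in MV (L.i.t.) against CTX and 10 higher in MV (L.i.t.) against Remote tumor (no MV), where 22.1% and 23.3% of all genes were higher. A ratio of at least 1.5 gave 14 higher and 2 lower in MV (L.i.t.) against CTX, 14 higher and 5 lower in TRP-1MV against CTX, and 14 higher and 4 lower in MV (L.i.t.) against Remote tumor (no MV). Under that rule 25.3%, 25.1% and 26% of all genes were higher in those comparisons and 24.1%, 24.8% and 24.6% lower. Each count here is out of 38 autophagy genes, and how near it lies to the share of all genes depends on the scale and the fold. Remote tumor (no MV) against CTX and TRP-1MV against MV (L.i.t.) had 0 autophagy genes called under every alternative run.

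Of the 23 calls of single genes over the 5 comparisons, 5 were lost under some alternative. Atg4a no longer reached 2-fold on the housekeeping scale in MV (L.i.t.) against CTX, TRP-1MV against CTX or MV (L.i.t.) against Remote tumor (no MV). Calcoco1 did not pass a bound of at least 2 in MV (L.i.t.) or TRP-1MV against CTX. No called gene changed sign. Medians close to 0 did: in Remote tumor (no MV) against CTX the median log2 ratio of the 38 genes was 0.02, and it was −0.0353 with housekeeping scaling, −0.0291 after thinning and −0.0023 beside genes of similar GC content. In TRP-1MV against MV (L.i.t.) it was −0.02, and 0.0017 beside genes of similar exon length. No paired analysis was possible because no group holds a second library. Atg9b, with 22 reads in CTX, and Atg10 are limited by depth, and the absence of replicate libraries limits every difference.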

Other observations

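Among FOXO factors, which control stress and autophagy genes, Foxo1 was called higher at 1.42 (95% interval 1.27 to 1.58) in MV (L.i.t.) and 1.42 (95% interval 1.26 to 1.57) in TRP-1MV against CTX. Its list of 5 other MiT/TFE and FOXO factors had 2 called higher and 1 lower in TRP-1MV against CTX. Those were Tfec, Foxo1 and Mitf, so no other FOXO gene of the list was called there. Of all genes, 18.5% were called higher in that comparison and 11.7% lower. Of 9 genes of NRF2 and its targets, with which p62 is linked through KEAP1, 1 was higher in MV (L.i.t.) than in CTX, Hmox1, heme oxygenase 1, at 1.13 (95% interval 1.04 to 1.22). Of all genes, 18.1% were called higher in that comparison. In TRP-1MV, Hmox1 was at 1.59 (95% interval 1.503 to 1.67) and Slc7a11, the cystine transporter, at 1.31 (95% interval 1.15 to 1.47), both called higher. Txnrd1, thioredoxin reductase 1, had the lowest ratio of that list in MV (L.i.t.), −0.34. The leukocyte markers given above move with these differences, and their part was not tested.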
